A study of Oryza sativa with 12 samples.

Results

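CPS4, KSL4, CYP99A3 and CYP71P1 are 4 rice genes for enzymes of chemical defence. They were chosen by name: every probe set, the group of short probes that an Affymetrix array uses to read 1 transcript, whose gene symbol or synonym in the platform annotation matched 1 of the 4 genes was taken. This gave 5 of the 57258 rice probe sets on the array, and 4 of the 17905 genes that had a probe set. CPS4, KSL4 and CYP99A3 had 1 probe set each, and CYP71P1 had 2. The 4 genes, and the pathway lists below, were chosen with earlier results of these data known. Counts of calls among them are set beside the share over all tested probe sets only as a description.

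The study concerned hybrid weakness, in which an F1 grows less well than either parent line, in a cross of the rice cultivars C bao and Jamaica. Total RNA was hybridised to 12 single-colour arrays in 6 groups of 2: roots at 7 days of the F1 hybrid (labelled CJF1), of C bao and of Jamaica, and leaves at 4 weeks of the same F1, C bao and Jamaica. The labels name no treatment, do not give the direction of the cross, and do not say whether the 2 arrays of a group came from separate plants, so p-values measure only the spread between these samples. Root and leaf differ in age, so tissue and age cannot be told apart, and in whole organs fewer cells of a type and less RNA per cell cannot be told apart either.

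Momilactones are labdane diterpenoids that rice makes as phytoalexins against fungi and releases from its roots against other plants. CPS4 (syn-copalyl diphosphate synthase) makes the first cyclic precursor of this branch from geranylgeranyl diphosphate, KSL4 (a kaurene synthase-like enzyme) turns that product into syn-pimaradiene, and the cytochrome P450 CYP99A3 oxidises the pimaradiene. CYP71P1 is the P450 tryptamine 5-hydroxylase, which makes serotonin from tryptophan-derived tryptamine; its loss in rice gives the lesion mimic mutant Sekiguchi lesion. In the reference annotation CPS4, CYP99A3, MAS (momilactone A synthase), KSL4 and CYP99A2 lay in this order on chromosome 4, with 1 other gene, for which the array had no probe set, between CYP99A3 and MAS, while CYP71P1 lay on chromosome 12.

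Values are MAS5 signals, on a linear scale with an arbitrary unit, as deposited. Changes are differences of group means of log2(signal + 16), which understates the change of dim probe sets, with the standard error (SE) from a limma fit to all 12 arrays and p-values adjusted over 42974 probe sets by the Benjamini-Hochberg method. A gene is said to have risen or fallen where this adjusted p was under 0.05. The 42974 probe sets were those with a group mean above a signal of 32.2 in at least 1 group, and this signal serves below as the threshold for a measurable level. Of the 5 member probe sets 4 passed this filter, 1 for each of the 4 genes. The second probe set of CYP71P1 had signals between 0.7 and 7.0 on all 12 arrays and was not tested, so every CYP71P1 value below is from the brighter one.

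The arrays matched their tissue labels. The summed signal of 6 leaf marker genes lay between 87043 and 190316 in leaves and between 3610 and 17108 in roots, and that of 6 root marker genes between 1360 and 2704 in leaves and between 27563 and 59038 in roots; no marker was at 0. The 2 F1 leaf arrays differed most from each other (Pearson r 0.936 over all 57258 rice probe sets, against 0.947 to 0.968 for the other groups). On these, the mean log2 level of 12 dividing-cell genes was 9.47 on replicate 1 and 5.77 on replicate 2, and that of 8 dehydration genes 8.64 and 11.87. The F1 root arrays had dehydration means of 13.89 and 14.01, the highest of the 12, and root marker sums of 27563 and 32971, the lowest of the 6 root arrays. Whether these differences play a part in the F1 values below was not tested.

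**Figure D1:**
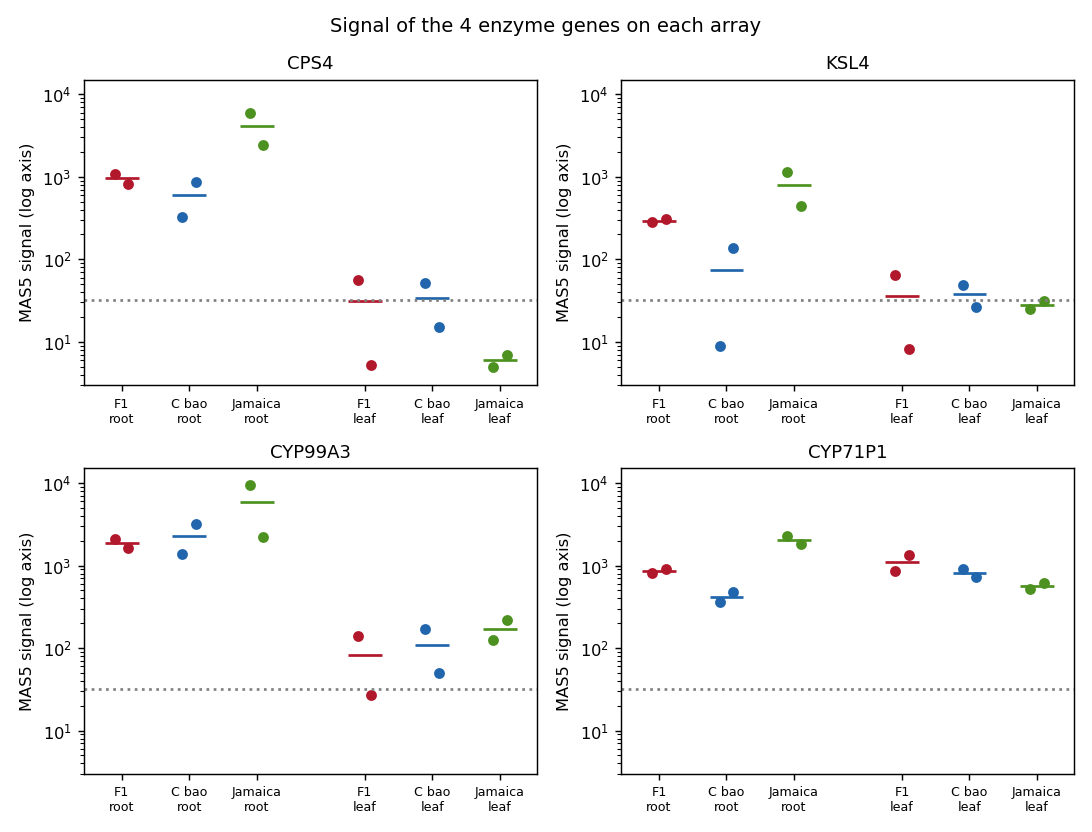
Signal of CPS4, KSL4, CYP99A3 and CYP71P1 on each of the 12 arrays, on a log axis. Points are arrays, bars are the means of the 2 arrays of a group, and the dotted line is the threshold signal of 32.2; CPS4 and CYP99A3 were brighter on every root array than on any leaf array, KSL4 was not (C bao root replicate 1 lay below the line), and CYP71P1 was well above the line on every array.

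CPS4 gave its highest signals in Jamaica roots. Its signal was 1085.2 and 822.8 in F1 roots, 326.5 and 874.9 in C bao roots, and 5887.3 and 2415.7 in Jamaica roots. The leaf arrays read 56.5 and 5.3 for the F1, 52.0 and 15.2 for C bao, and 4.9 and 7.0 for Jamaica. Both Jamaica root arrays thus lay above all other arrays, the F1 and C bao root arrays overlapped, and every leaf array lay below every root array. In order of group mean, Jamaica roots came first, then F1 roots, C bao roots, C bao leaves, F1 leaves and Jamaica leaves, and each pair of neighbours among the last 3 overlapped.

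KSL4 acts directly after CPS4 and gave the same order in roots. It had signals of 282.2 and 305.5 in F1 roots, 8.8 and 138.6 in C bao roots, and 1151.2 and 437.3 in Jamaica roots. The leaf signals were 64.4 and 8.1 for the F1, 48.5 and 26.8 for C bao, and 25.2 and 31.1 for Jamaica. The 3 root groups did not overlap one another, but C bao root replicate 1 lay below the threshold, among the leaf arrays. All neighbours from C bao roots downwards overlapped.

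CYP99A3 was bright in the roots of all 3 genotypes. Its signal was 2096.3 and 1611.0 in F1 roots, 1394.0 and 3201.9 in C bao roots, and 9442.8 and 2244.9 in Jamaica roots. Leaf signals were 138.8 and 27.0 for the F1, 169.8 and 49.6 for C bao, and 124.9 and 218.2 for Jamaica. Every root array lay above every leaf array, C bao roots overlapped both other root groups, and neighbouring leaf groups overlapped.

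CYP71P1 was well above the threshold on all 12 arrays, and its root replicates were close. The signals were 811.2 and 902.5 in F1 roots, 361.9 and 478.8 in C bao roots, and 2277.4 and 1845.6 in Jamaica roots. Those of leaves were 867.6 and 1341.3 for the F1, 906.8 and 716.6 for C bao, and 515.2 and 605.6 for Jamaica. In roots the 3 genotypes did not overlap, with Jamaica highest and C bao lowest; in leaves both C bao arrays and both F1 arrays lay above the Jamaica arrays. C bao roots were the lowest of the 6 groups and Jamaica roots the highest.

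The first comparison was between the parents in roots. CPS4, KSL4 and CYP71P1 fell in C bao roots relative to Jamaica roots, and CYP99A3 did not pass the test. The first 3 were lower on both C bao arrays than on both Jamaica arrays, as were 27.4% of tested probe sets. The calls were 3 of 4 members, where 4.7% of all tested probe sets were called in either direction and 2.31% lower. The members were chosen with earlier results of these data known, so count and shares are set side by side only as a description. CPS4 was lower by 6.86-fold (log2 change -2.78, SE 0.669, limma adjusted p = 0.0402), KSL4 by 11.7-fold (-3.55, SE 0.824, adjusted p = 0.0333) and CYP71P1 by 4.78-fold (-2.26, SE 0.254, adjusted p = 0.000363). The KSL4 fold rests in part on C bao root replicate 1, whose signal of 8.8 lay below the threshold. CYP99A3 had a change of -1.12 (SE 0.776, adjusted p = 0.553), its arrays overlapping between the parents. The median change was -2.52 over the 4 members and -0.03 over all tested probe sets. Leaf markers moved with the contrast: the summed signal of the 6 leaf marker genes was 13830 and 17108 in C bao roots, against 6086 and 5580 in Jamaica roots, with 2 of 6 higher in C bao by the limma test. Their part in the result was not tested.

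The CYP71P1 call held in all 22 alternative settings and array omissions, with adjusted p up to 0.00868, whereas CPS4 kept its call in 10 of 22 and KSL4 in 12 of 22, always with the same direction. Without Jamaica root replicate 1 the change was -2.14 for CPS4 (adjusted p = 0.308) and -2.87 for KSL4 (adjusted p = 0.268), and without C bao root replicate 1 it was -2.09 (adjusted p = 0.257) and -2.23 (adjusted p = 0.207). The CPS4 call was also lost without C bao root replicate 2, Jamaica root replicate 2, either Jamaica leaf array or either F1 root array, and the KSL4 call without Jamaica root replicate 2, either C bao leaf array or either F1 root array.

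In F1 roots the means of 3 of the 4 members lay between those of the parents, as did 31.0% of all tested probe sets; CYP99A3 was the exception, with the lowest mean in the F1. Against C bao roots 1 of 4 members rose, where 5.58% of tested probe sets were called and 3.49% were higher: CYP71P1 was higher by 2.02-fold (log2 change 1.01, SE 0.254, limma adjusted p = 0.0445). KSL4 was brighter on both F1 arrays than on both C bao arrays, as 35.3% of probe sets were, but its change of 2.32 (SE 0.824, adjusted p = 0.143) did not pass. CPS4 had a change of 0.80 (adjusted p = 0.572) and CYP99A3 one of -0.20 (adjusted p = 0.925), both with overlapping arrays. Of the 6 leaf marker genes 5 fell in this comparison, with summed signals of 3610 and 6922 in F1 roots and 13830 and 17108 in C bao roots; their part in the result was not tested. The CYP71P1 call held in 9 of 22 alternatives. It was lost without any 1 of the 6 root arrays or either C bao leaf array (adjusted p up to 0.23), and under quantile scaling (0.87, adjusted p = 0.101) and median centring (0.76, adjusted p = 0.107). F1 root arrays had the highest median signals, and centring all arrays on their medians changed the split of all calls against C bao roots to 1058 higher and 2120 lower, where the trimmed mean gave 1499 higher and 899 lower; against Jamaica roots it was 1082 and 1514, where the trimmed mean gave 1402 and 665.

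Against Jamaica roots, all 4 members were dimmer on both F1 arrays than on both Jamaica arrays, as were 22.2% of tested probe sets. One of the 4 fell in the test, where 4.81% of tested probe sets were called and 1.55% were lower: CYP71P1 was lower by 2.37-fold (log2 change -1.25, SE 0.254, limma adjusted p = 0.0177). CPS4 had a change of -1.98 (SE 0.669, adjusted p = 0.146), CYP99A3 of -1.32 (adjusted p = 0.455) and KSL4 of -1.23 (adjusted p = 0.528). The CYP71P1 call held in 18 of 22 alternatives and was lost without F1 root replicate 1 (adjusted p = 0.151), F1 root replicate 2 (0.0985), Jamaica root replicate 1 (0.166) or Jamaica root replicate 2 (0.0627).

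CYP71P1 was therefore called against both parents, with its F1 mean between theirs, as were 109 of the 42974 tested probe sets (0.254%). Both comparisons share the F1 arrays. None of the 4 members was called against the mean of the parental log2 levels in roots, the mid-parent value, where 5.06% of tested probe sets were. The changes from mid-parent were -0.12 for CYP71P1 (SE 0.220, 95% limits -0.60 to 0.37), -0.59 for CPS4 (-1.87 to 0.69), 0.54 for KSL4 (-1.03 to 2.12) and -0.76 for CYP99A3 (-2.25 to 0.73), with unadjusted p of 0.283 or more, so 0 of 4 passed an unadjusted p of 0.05 as well. The limits of the 3 momilactone genes thus left room for changes of over 1 on the log2 scale. The median change over all tested probe sets was 0.12 in this comparison.

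**Figure D2:**
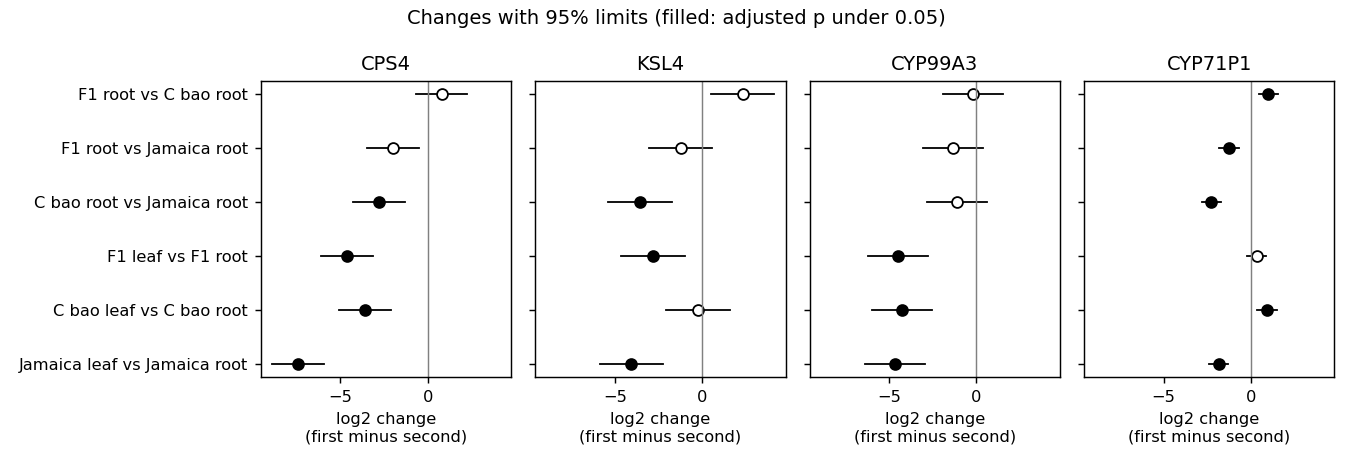
Log2 changes of the 4 genes (horizontal axis, first group minus second) with 95% limits from the limma fit, in 3 comparisons of genotypes in roots and 3 of leaf with root. Filled points passed an adjusted p of 0.05; CYP71P1 had the narrowest limits and was the gene that rose in F1 roots against C bao and fell against Jamaica.

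Leaves gave no call among the members in any comparison of genotypes. The background was 1.15% called for F1 against C bao, 5.22% for F1 against Jamaica, 1.21% for F1 against mid-parent and 11.9% for C bao against Jamaica. At an unadjusted p of 0.05, 1 of the 4 members, CYP71P1, passed for F1 against Jamaica and against mid-parent, and 0 in the other 2 comparisons. CYP71P1 came closest, with a change of 0.93 in F1 leaves against Jamaica leaves (SE 0.254, limma adjusted p = 0.0627, unadjusted p = 0.00401) and no overlap of arrays, as for the 20.5% of probe sets that were higher on both F1 arrays. It had a change of 0.41 against C bao leaves (adjusted p = 0.57) and of 0.67 against mid-parent (adjusted p = 0.228). Without F1 leaf replicate 1, the array with the lower dehydration and higher dividing-cell levels, the change against Jamaica leaves was 1.24 (adjusted p = 0.0211) and that against mid-parent 0.98 (adjusted p = 0.0368). The F1 leaf group is then a lone array, assumed to vary like the other groups, and calls over all probe sets were 1998 against Jamaica leaves and 2230 against mid-parent in that setting, against 2242 and 522 with all 12 arrays. The leaf backgrounds themselves moved widely on leaving out 1 array: calls ranged from 199 to 4409 for F1 against C bao, 956 to 6022 for F1 against Jamaica, 224 to 2230 for F1 against mid-parent and 1532 to 8095 for C bao against Jamaica.

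Between the parental leaves CYP71P1 had a change of 0.52 (C bao minus Jamaica, adjusted p = 0.224), also without overlap, as 28.0% of probe sets were higher on both C bao arrays. Dividing-cell genes moved with this contrast: their mean log2 level was 9.03 and 9.38 in C bao leaves, against 5.64 and 6.84 in Jamaica leaves, with 4 of 12 higher in C bao by the limma test and a median change of 3.06; their part in the CYP71P1 values was not tested. CYP99A3 had leaf changes of -0.44 for F1 against C bao, -1.15 for F1 against Jamaica and -0.72 for C bao against Jamaica, with adjusted p from 0.428 to 0.883. CPS4 and KSL4 lay at or below the threshold in most leaf groups, so no fold is given for them between leaf genotypes; their adjusted p lay above 0.3 in each of the 4 comparisons.

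Leaves were then set against the root of the same genotype: CPS4 and CYP99A3 fell in leaves of all 3 genotypes, and KSL4 in those of the F1 and Jamaica but not of C bao. In F1 leaves 3 of 4 members fell, where 29.8% of tested probe sets were called and 16.4% were lower (7206 higher and 5027 lower under median centring, against 5765 and 7044). In C bao leaves 2 fell and 1 rose, where 30.0% were called, 13.4% lower and 16.5% higher (7105 higher and 5777 lower, against 6272 and 6531 under median centring and 5957 and 6510 under quantile scaling). In Jamaica leaves all 4 fell, where 35.1% were called and 18.9% were lower. CYP99A3 fell in each genotype, with log2 changes of -4.51 for the F1, -4.27 for C bao and -4.67 for Jamaica (limma adjusted p 0.00134, 0.00169 and 0.000815).

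CPS4 also fell in leaves of each genotype (adjusted p 0.000436 for the F1, 0.002 for C bao and 9.94e-06 for Jamaica). Its leaf means on the log2 scale were below the threshold. With the threshold in their place the root mean was higher by at least 20.0-fold in the F1, 11.5-fold in C bao and 78.7-fold in Jamaica. F1 leaf replicate 1 (56.5) and C bao leaf replicate 1 (52.0) lay above the threshold, so these folds bound log2 group means and not single arrays. KSL4 fell in F1 leaves (adjusted p = 0.0251) and in Jamaica leaves (adjusted p = 0.003), with root means at least 6.43-fold and 15.1-fold higher. These bound log2 group means too, as KSL4 read 64.4 on F1 leaf replicate 1. In C bao, where KSL4 was low in both organs, the change was -0.24 (adjusted p = 0.869). The KSL4 call in the F1 was lost without F1 leaf replicate 2 (-1.94, adjusted p = 0.161), F1 root replicate 1 (adjusted p = 0.096) or F1 root replicate 2 (adjusted p = 0.11).

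CYP71P1 did not share this pattern. It fell in Jamaica leaves (log2 change -1.85, SE 0.254, adjusted p = 0.000224), rose in C bao leaves (0.93, adjusted p = 0.0178), and in F1 leaves had a change of 0.33 (95% limits -0.23 to 0.89, adjusted p = 0.375). The rise in C bao was lost without C bao leaf replicate 1 (0.76, adjusted p = 0.124) or C bao root replicate 1 (0.73, adjusted p = 0.13), and under quantile scaling (0.70, adjusted p = 0.0751).

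The parental difference itself was tested between the organs. CYP71P1 was called in this interaction, with the difference of C bao minus Jamaica higher by 2.77 in leaf than in root (log2, SE 0.360, limma adjusted p = 0.00525); 3.12% of tested probe sets were called and 1.69% were higher. This call held in all 21 alternatives, with adjusted p up to 0.033. CPS4 had an interaction of 3.85 (SE 0.946, adjusted p = 0.0549) and KSL4 of 3.81 (SE 1.16, adjusted p = 0.105), neither past the adjusted p of 0.05 with all 12 arrays. These are fitted values and no bounds, since both genes lay below the signal threshold on 1 of 2 C bao leaf arrays and on both Jamaica leaf arrays. Without both F1 leaf arrays, an omission chosen after the data were seen, the adjusted p was 0.00963 for CPS4 and 0.0416 for KSL4, and it was likewise under 0.05 for both when either F1 leaf array was left out. Calls over all probe sets grew in the same settings, to 4741 of 42421 (11.2%) without both arrays, 4653 without F1 leaf replicate 1 and 4698 without replicate 2, against 1341 with all 12 arrays.

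CYP99A3 had an interaction of 0.40 (adjusted p = 0.878). For the F1 change from mid-parent, the interaction of leaf minus root called none of the 4 members, where 1.11% of tested probe sets were called by limma. The values were 0.79 for CYP71P1 (unadjusted p = 0.0286, adjusted p = 0.295), 0.90 for CPS4, -0.67 for KSL4 and -0.04 for CYP99A3, the last 3 with unadjusted p of 0.298 or more.

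The 3 momilactone genes differed between replicates in the parental roots in 1 direction. CPS4, KSL4 and CYP99A3 were all brighter on C bao root replicate 2 than on replicate 1, by 2.68-, 15.8- and 2.30-fold in signal, and brighter on Jamaica root replicate 1 than on replicate 2, by 2.44-, 2.63- and 4.21-fold. CYP71P1 differed by 1.32-fold and 1.23-fold in the same arrays. The 15.8-fold value of KSL4 rests on a signal of 8.8, below the threshold, on C bao root replicate 1. The F1 root replicates differed by less than 0.4 on the log2 scale for each of the 4 genes.

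Across the 7 genes of the momilactone pathway that the annotation named (the 3 members, CYP99A2, MAS, CYP76M8 and CYP701A8), 6 were over 1 log2 unit higher on Jamaica root replicate 1, where 6.51% of tested probe sets were, and 6 on C bao root replicate 2, where 6.21% were. Among 10 genes for other labdane phytoalexins the counts were 9 and 5. None of 4 genes for tryptophan supply differed so far in either group. What distinguished these replicates is not given in the labels, and replicate numbers carry no order.

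**Figure D3:**
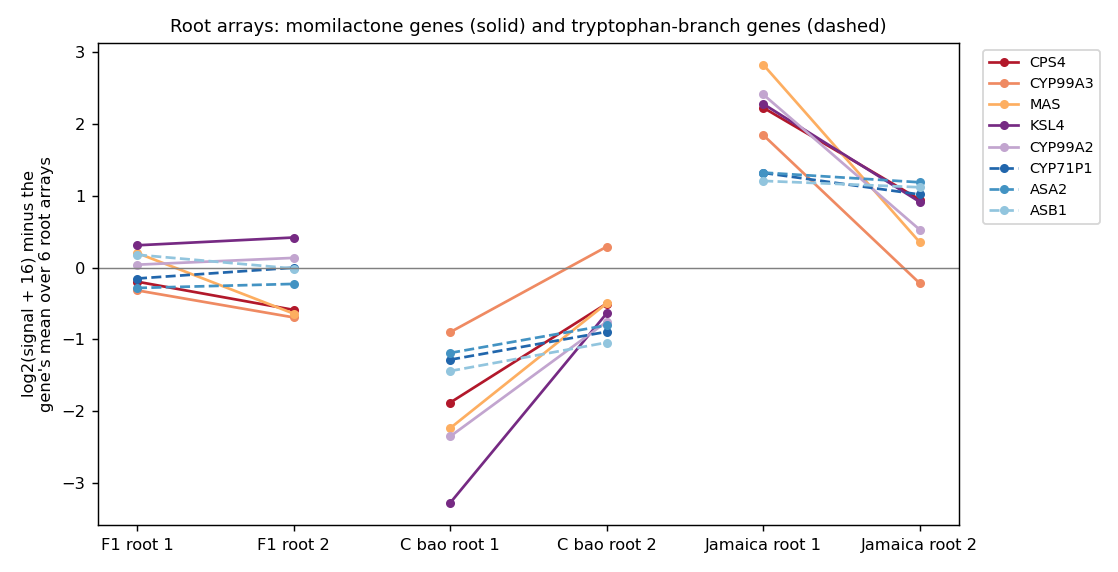
Level of 8 genes on the 6 root arrays, as log2(signal + 16) minus the gene's mean over those arrays (vertical axis); lines join the 2 arrays of a group. The 5 momilactone genes (solid) were split between the 2 arrays of C bao and of Jamaica, while CYP71P1, ASA2 and ASB1 (dashed) differed little within a group.

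The test was then read for all 7 momilactone genes. In C bao roots against Jamaica roots their median change was -2.78, against -0.03 over all tested probe sets. All 7 were tested and 5 fell, where 2.31% of tested probe sets were lower. Beside CPS4 and KSL4, these were CYP99A2 (a P450 of the same family as CYP99A3; log2 change -3.02, limma adjusted p = 0.0268) and, named after their values were seen, CYP76M8 (-2.65, adjusted p = 0.0079) and CYP701A8 (-2.75, adjusted p = 0.00586), both P450s of rice diterpenoid synthesis. CYP99A2 had signals of 142.0 and 462.1 in C bao roots and 4272.5 and 1146.1 in Jamaica roots. MAS, the dehydrogenase that forms momilactone A, had 143.2 and 515.1 in C bao roots and 5304.9 and 941.7 in Jamaica roots, and its change of -2.96 did not pass (adjusted p = 0.0608).

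CYP99A2 lost this call without C bao root replicate 1, Jamaica root replicate 1 or either F1 root array. CYP76M8 lost it without C bao root replicate 1 or Jamaica root replicate 1, and CYP701A8 without C bao root replicate 1. Whether probe sets of related genes, such as CYP99A2 and CYP99A3 or the CYP76M genes, read each other's transcripts was not tested here or below.

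In F1 roots the pathway list had 1 call against C bao, where 3.49% of all tested probe sets were higher. CYP701A8 rose by 2.64 on the log2 scale (limma adjusted p = 0.00851), with signals of 804.7 and 799.0 in F1 roots and 83.4 and 156.7 in C bao roots. That call was lost without C bao root replicate 1 or either F1 root array. Of the 7 genes, 0 were called by limma against Jamaica roots (3 at an unadjusted p of 0.05), where the largest changes were those of CPS4 and MAS (-1.81, adjusted p = 0.267), and 0 against mid-parent (1 at an unadjusted p of 0.05), where CYP701A8 had 1.27 (adjusted p = 0.113) and CYP99A3 -0.76.

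In leaves against roots, 6 of 7 momilactone genes fell in the F1, 2 in C bao and 6 in Jamaica, where 16.4%, 13.4% and 18.9% of all tested probe sets were lower, although the CYP701A8 call in the F1 held in 5 of 20 alternatives. The MAS call in the F1 was lost without F1 root replicate 1, and the CYP76M8 call in Jamaica without either Jamaica leaf array or Jamaica root replicate 1. MAS fell by 5.36 in Jamaica leaves (log2, limma adjusted p = 0.000318) and CYP99A2 fell by 4.86 (adjusted p = 0.000228). CYP99A2 fell by 3.46 in F1 leaves (adjusted p = 0.00275). CYP701A8 was the exception in Jamaica, with signals of 727.0 and 989.9 in leaves and 1516.4 and 488.7 in roots.

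CYP701A8 was also the only 1 of the 7 that differed between the parental leaves, lower in C bao (log2 change -2.19, limma adjusted p = 0.0142; lost without either C bao leaf array or Jamaica leaf replicate 2). Of all tested probe sets 11.9% were called between the parental leaves. The parental difference changed between organs for MAS (4.93, adjusted p = 0.0407), a call that held in 8 of 21 alternatives and was lost without any single C bao array, either Jamaica leaf array, Jamaica root replicate 1 or either F1 root array.

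Genes of neighbouring diterpenoid branches were read from lists of known rice enzymes. Of 10 genes for other labdane phytoalexins, 2 fell in C bao roots against Jamaica roots: KSL7, the synthase of the phytocassane branch (log2 change -3.22, limma adjusted p = 0.0122), and CYP76M5 (-2.67, adjusted p = 0.0199). Of all tested probe sets 2.31% were lower between the parental roots. KSL7 and CYP76M5 also fell in F1 roots against Jamaica roots, where 1.55% were lower. Each had a change of -2.53 there (limma adjusted p 0.0433 for KSL7 and 0.0265 for CYP76M5). KSL7 lost that call in 11 of 22 alternatives, among them the omission of any F1 or Jamaica root array, and CYP76M5 without Jamaica root replicate 1 or F1 root replicate 2. Both lost the call between the parental roots without C bao root replicate 1 or Jamaica root replicate 1, and CYP76M5 also without C bao root replicate 2.

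KSL7 differed from KSL4 in leaves. It had signals of 345.6 and 1064.6 in F1 leaves, 1276.0 and 1925.2 in C bao leaves, and 5.7 and 7.0 in Jamaica leaves, where it lay below the threshold. Its parental difference was 9.37 higher in leaf than in root (log2, limma adjusted p = 0.00124), a fitted value that rests on signals below the threshold in Jamaica leaves and is no bound.

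The gibberellin branch uses the same geranylgeranyl precursor for growth hormones. Of its 6 tested genes, 5 rose in F1 leaves against roots, 4 in C bao and 4 in Jamaica, where 13.4%, 16.5% and 16.2% of all tested probe sets were higher. GA20OX3, a gibberellin 20-oxidase gene, fell in F1 leaves (-1.52, limma adjusted p = 9.32e-05) and in C bao leaves (-0.64, adjusted p = 0.0186), both named after its values were seen. CPS1, the copalyl diphosphate synthase of this branch, rose in the leaves of each genotype (limma adjusted p up to 0.00182), by 2.02 on the log2 scale in the F1 and 2.35 in Jamaica; both C bao root arrays lay below the threshold. KS1, the kaurene synthase gene, rose by 2.97 in the F1, 2.83 in C bao and 2.89 in Jamaica. CPS4 and KSL4, their counterparts in the momilactone branch, fell in the same F1 and Jamaica leaves. In F1 roots GA20OX3 rose against mid-parent (1.05, adjusted p = 0.00269; lost without F1 root replicate 2), with signals of 1940.6 and 2230.4 in F1 roots, 878.6 and 839.8 in C bao roots, and 1124.1 and 1193.2 in Jamaica roots. Of 5 genes for plastid isoprenoid supply, 1, MCS, fell in F1 roots against Jamaica roots (-1.09, adjusted p = 0.0351; lost without any single C bao array, either F1 root array or Jamaica root replicate 1) and 0 were called by limma between the parental roots. Of all tested probe sets 1.55% were lower in the first comparison and 4.7% were called in the second. At an unadjusted p of 0.05 the counts were 5 of 5 for F1 roots against Jamaica, 5 of 5 for F1 roots against mid-parent and 1 of 5 between the parental roots. Against mid-parent 0 of these 5 passed the adjusted test. No share of all tested probe sets at the unadjusted cut is given, here or for the other lists, so these counts have no background.

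The genes that supply tryptophan, the source of the CYP71P1 substrate, were next. ASA2 and ASB1 encode subunits of anthranilate synthase, the first enzyme of tryptophan synthesis. ASA2 had signals of 601.9 and 626.5 in F1 roots, 314.1 and 414.9 in C bao roots, and 1865.8 and 1697.4 in Jamaica roots. ASB1 had 2486.7 and 2175.3 in F1 roots, 798.7 and 1056.6 in C bao roots, and 5087.2 and 4784.3 in Jamaica roots. For both genes, as for CYP71P1, the 3 root groups did not overlap, with Jamaica highest and C bao lowest.

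Of the 4 tryptophan supply genes, these 2 fell in C bao roots against Jamaica roots (ASA2 log2 change -2.25, limma adjusted p = 9.19e-05; ASB1 -2.40, adjusted p = 8.96e-06) and in F1 roots against Jamaica roots (ASA2 -1.51, adjusted p = 0.00194; ASB1 -1.08, adjusted p = 0.00382). Of all tested probe sets 2.31% were lower between the parental roots and 1.55% in F1 roots against Jamaica roots. ASB1 also rose in F1 roots against C bao roots (1.32, limma adjusted p = 0.00129), where 3.49% were higher. These calls held in all 22 alternatives, except that ASB1 in F1 roots against Jamaica lost its call without F1 root replicate 2. The parental difference was higher in leaf than in root for both, by 2.20 for ASA2 (adjusted p = 0.00643) and 1.83 for ASB1 (adjusted p = 0.0053). Of the 4 genes, 0 were called by limma against mid-parent in F1 roots (1 at an unadjusted p of 0.05) or F1 leaves (0 unadjusted).

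**Figure D4:**
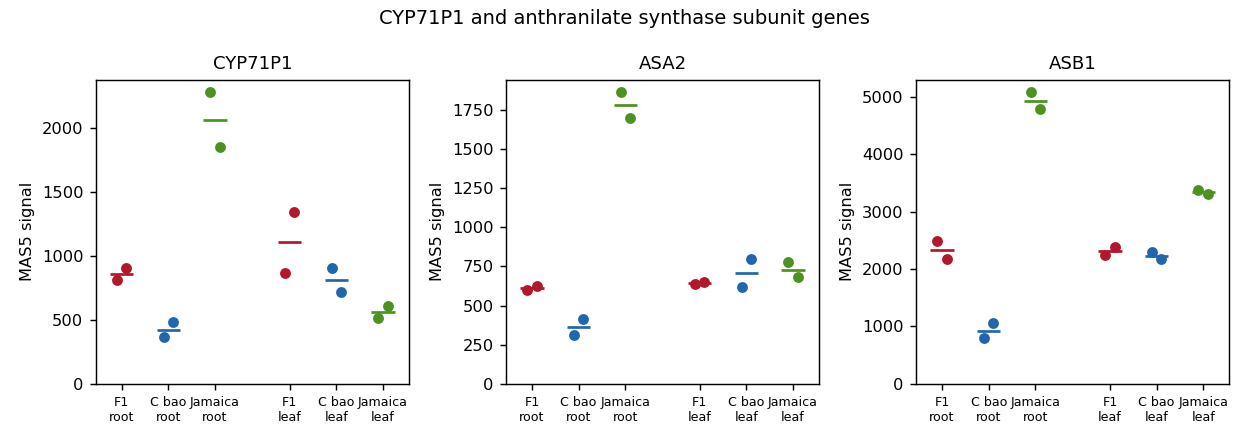
Signal of CYP71P1, ASA2 and ASB1 on each array, on linear axes from 0; points are arrays and bars are the means of the 2 arrays of a group. In roots F1 arrays lay between those of C bao and Jamaica for all 3 genes, and C bao was lowest.

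The list of the tryptamine and serotonin branch held 8 tested genes, CYP71P1 among them. TDC2, a tryptophan decarboxylase gene for the step before CYP71P1, had signals of 494.8 and 369.5 in F1 roots, 1082.5 and 1139.4 in C bao roots, and 734.6 and 883.0 in Jamaica roots. It was lowest in the F1, below both parents on both arrays. TDC2 fell in F1 roots against C bao roots (log2 change -1.34, limma adjusted p = 0.0291; lost without either F1 or either C bao root array) and against mid-parent (-1.12, adjusted p = 0.0373; lost without any single root array or either C bao leaf array).

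ASMT3, annotated among the acetylserotonin O-methyltransferases, went the other way. Its signals were 398.3 and 331.9 in F1 roots, 59.6 and 32.0 in C bao roots, and 4.5 and 33.9 in Jamaica roots. On both Jamaica root arrays and on C bao root replicate 2 it lay near or below the threshold. It rose against mid-parent by 3.11 (limma adjusted p = 0.00785), a call lost with a pseudocount of 1 or without either F1 root array. SNAT and SNAT2, serotonin N-acetyltransferase genes, rose in leaves against roots in each genotype, by 2.37 to 3.02 for SNAT and 2.47 to 3.88 for SNAT2. The F1 value of SNAT lies outside the naming rule given below. In C bao roots against Jamaica roots CYP71P1 was the 1 gene of the 8 that was called, where 4.7% of all tested probe sets were.

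Among 10 regulators of phytoalexin genes, 0 were called by limma between the parental roots (2 at an unadjusted p of 0.05), where 4.7% of tested probe sets were. Between the parental leaves 3 were higher and 2 lower in C bao, where 11.9% of tested probe sets were called. In the parental interaction 3 were higher in leaf than in root, where 1.69% of tested probe sets were. Those calls, of WRKY76, WRKY62 and CEBIP, held in 12, 7 and 16 of 21 alternatives. WRKY71, a transcription factor gene, rose in F1 roots against mid-parent (log2 change 2.35, limma adjusted p = 8.42e-05), with signals of 5086.9 and 5936.4 in F1 roots, 861.4 and 1105.6 in C bao roots, and 1350.3 and 996.3 in Jamaica roots. BZIP79, which encodes a bZIP factor, fell in leaves, with log2 changes of -4.72 in the F1, -5.64 in C bao and -5.55 in Jamaica (limma adjusted p up to 0.000568); its leaf arrays lay on both sides of the threshold, between 4.9 and 82.1.

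The genes whose log2 levels followed each member most closely over the 12 arrays were sought among probe sets with a gene symbol. These correlations are a description: the arrays come in 6 groups of 2 and differ in tissue, which every such r reflects. For CPS4 they were OC-XII (a cystatin gene, Pearson r 0.975), CAT-B (catalase, 0.974) and CYP99A2 (0.961). For KSL4 they were CYP99A2 (0.950, the highest of all 42973 other probe sets), GH3.9 (0.937) and NAC45 (0.903). For CYP99A3 they were OSK24 (0.971), CYP714D1 (0.969) and CCAMK (0.966).

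CYP71P1 had OsPP2C45 (r 0.904), CYP76M6 (0.898) and ASA2 (0.847). The CYP76M6 value came from the dimmer of its 2 probe sets, not the one counted among the other labdane phytoalexin genes. Among the members, r over the 12 arrays was 0.952 for CPS4 with CYP99A3, 0.875 for CPS4 with KSL4 and 0.804 for KSL4 with CYP99A3. Ranked by r with CPS4 among 42973 other probe sets, CYP99A3 came at 88 and KSL4 at 1995. By r with CYP99A3, CPS4 came at 88 and KSL4 at 4233. By r with KSL4, CPS4 came at 49 and CYP99A3 at 321. CYP71P1 had lower r, 0.631 with KSL4, 0.417 with CPS4 and 0.210 with CYP99A3.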

How the data were processed

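The deposited table holds intensity values (signals) that the authors computed by MAS5 (per the submitters' processing notes), every array being scaled to a 2% trimmed mean close to 500; software version, detection calls and scan dates are not given in the sources used here. Per the labels' protocols, RNeasy kits and one-cycle Affymetrix labelling were used. Of 57381 probe sets, 123 controls were left out. Signals were used as deposited, with no further scaling in the main fit, and log2(signal + 16) was taken. Probe sets above the mean 40th percentile of the arrays (log2 5.59) in at least 1 group were kept. Group means of all 12 arrays were fitted with limma 3.58.1 in R 4.3.3 (lmFit, eBayes with trend; degrees of freedom were 6 residual and 4.58 prior), with Benjamini-Hochberg adjustment within each comparison. Python 3.11.15 made the tables and plots. The script was tested on simulated data. The number of arrays, 2 a group, limits the precision.

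Genes were named through the platform annotation, in which 22436 rice probe sets had 1 gene, 95 had several and 34727 had none; gene order came from RefSeq assembly ASM3414082v1, without coordinates because the files name no build. The 4 members and the pathway lists were chosen with earlier results of these data known. Named genes were all members, up to 3 called genes of largest change per list and comparison (or up to 2 where none was called), and the 3 named genes of highest r with each member. Not all of these are printed, and some values outside the rule are printed too, not all of them marked. A gene of a list was read from its probe set of highest mean signal. Matches by synonym to another gene were removed from the lists before values were read, and a clone name was dropped from the correlated genes after values were seen. The symbols MPK3, CYCB1-1 and AMT1-2 still matched more than 1 gene each, and every such gene with a probe set was counted. The match for the symbol CYP76M7 is uncertain from its place in the annotation, and it was counted among the other labdane phytoalexin genes. Same-numbered replicates did not deviate together (correlations of deviations -0.13 to 0.06 over 15 pairs of groups), so the numbers were not used as pairs. Alternatives were quantile scaling, median centring, pseudocounts of 1 and 64, no filter, a filter at the 60th percentile, no trend, 1 tissue alone, a linear mid-parent, a replicate block and leaving out each array.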

Additional observations from a re-analysis of the deposited data

Results flagged for a closer look

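For CYP71P1, the difference between the parents (C bao minus Jamaica) differed between the organs: it was 0.52 in leaf and -2.26 in root on the log2 scale, an interaction of 2.77 (SE 0.360, limma adjusted p = 0.00525). CYP71P1 was lower in C bao than in Jamaica on both root arrays and higher on both leaf arrays, although the leaf difference alone did not pass the test. Roots were 7 days and leaves 4 weeks old, so organ and age cannot be told apart.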

How the results depend on the processing

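Each called change of a member kept its direction under every alternative run. Of 1005 checks of member changes, 922 kept direction and side of the threshold, 45 lost a call, 11 gained one and 27 changed the sign of a value that had not passed the test. Counts of members called moved as follows. In F1 roots against C bao the 1 called member became 0 under quantile scaling, median centring, no filter, no trend and the replicate block (CYP71P1 adjusted p = 0.0604 with the block), and leaving out 1 array gave 0 to 1. Against Jamaica roots it became 2 with a pseudocount of 64 or with roots alone, where CPS4 passed too (adjusted p 0.0426 and 0.0184), and leaving out 1 array gave 0 to 1. In C bao against Jamaica roots the 3 became 1 with a pseudocount of 1 or no trend, 2 under quantile scaling or no filter, where CPS4 lost its call (adjusted p 0.0545 and 0.0534), and 1 to 3 without 1 array; KSL4 lost its call under the block (adjusted p = 0.0523). F1 leaves against Jamaica and against mid-parent gave 0 to 1 without 1 array. The parental interaction became 2 with a pseudocount of 64, 3 without both F1 leaf arrays, and 1 to 3 without 1 array. The numbers of the replicates are only shared, so the block says nothing of pairing.

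Signs changed for these values, none of which passed the test in any setting; the cause was not tested. KSL4 against mid-parent in F1 roots was -0.35 with a linear mid-parent and -0.12 to 1.20 without 1 array. KSL4 in C bao leaf against root was 0.00422 with a pseudocount of 1 and -1.56 to 1.08 without 1 array. The CYP99A3 interaction of the F1 change was 0.25 under median centring, 0.24 with a pseudocount of 64 and -0.96 to 0.89 without 1 array, and that of KSL4 -1.54 to 0.20. Without 1 array, CYP99A3 ranged from -0.80 to 0.39 in F1 against C bao roots, -1.36 to 0.49 in F1 against C bao leaves, -1.72 to 0.13 against mid-parent in leaves, -1.47 to 0.033 between the parental leaves and -0.63 to 1.43 in the parental interaction. KSL4, which lies around the signal threshold in leaves, ranged from -1.12 to 0.61 in F1 against C bao leaves, -0.997 to 0.74 against mid-parent and -0.042 to 0.55 between the parental leaves.

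Calls over all probe sets moved by more than 1.5 times with 1 tissue alone: 6218 in F1 against C bao roots, 4737 in F1 against Jamaica roots, 5448 against mid-parent and 4455 between the parental roots, with roots alone, against 2398, 2067, 2174 and 2018; and 121, 422, 39 and 1247 in the same order with leaves alone, against 495, 2242, 522 and 5095. A linear mid-parent gave 245 in leaves, and no trend gave 1398 in F1 against Jamaica leaves and 724 in the parental interaction, against 2242 and 1341. The interaction of the F1 change gave 791 under median centring, 757 with a pseudocount of 64 and 253 with no trend, against 477. Leaving out 1 array moved these counts further, to 631 to 3850 in F1 against C bao roots, 832 to 2999 in F1 against Jamaica roots, 539 to 3377 against mid-parent and 996 to 2749 between the parental roots; to 286 to 4698 in the parental interaction, 68 to 1994 in that of the F1 change and 8133 to 14735 in F1 leaf against root. The ranges in leaves stand beside their shares in the text above.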
